A study of Mus musculus with 12 samples.

Results

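The comparison set 5 MYC-driven thymic lymphomas that kept Dnmt3a, called control tumors in the labels and tumors 1 to 5 here, against 3 samples of normal thymocytes. These were 8 of the 12 arrays of a series on Dnmt3a, a de novo DNA methyltransferase, in T-cell lymphoma, and they were chosen by the group in the sample titles, with no measured value. All mice were FVB/N and all RNA was total RNA of thymus. Normal thymocytes were non-tumor wild-type cells taken at 24 dpn. Control tumors were tumor thymocytes with a wild-type genotype label, taken at an age given only as Terminal. The design text says that Dnmt3a was deleted in blood-forming cells in the presence of MYC, and 4 Dnmt3a-deficient tumors make up the rest of the series. Their values are given here only beside those of the control tumors. They also entered the choice of probe sets and the fit, in which all 12 arrays share 1 estimate of the spread. The labels used here do not state the sequence or promoter of the MYC transgene, the Cre, or whether the arrays are of separate animals. The p-values therefore measure the spread between arrays, estimated over all 12. Tumor and normal arrays also differ in the age of the mice, which cannot be told apart from the tumor itself. Each array gave a log2 value per gene for 19309 genes, made by RMA, and a difference of 1 on this scale is a 2-fold change. These values are relative to the signal of the whole array and do not show whether a cell held more or less RNA in all, and in bulk RNA fewer cells of a type and less RNA per cell cannot be told apart.

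MYC is a transcription factor that binds E-box sequences together with its partner MAX, and it is known for raising genes of ribosome production, nucleotide synthesis, translation and cell division. In the thymus, precursors without CD4 and CD8 rearrange the T cell receptor beta chain under Notch signals, divide, and become double-positive cells that carry both coreceptors, use the RAG recombinase again for the alpha chain and mostly die unless selected. A normal thymus is mainly double-positive cells, which are small and mostly at rest.

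Of the 19309 genes, 4706 (24.4%) passed limma's test with a Benjamini-Hochberg adjusted p under 0.05, of which 2519 (13.0% of all) were higher and 2187 (11.3%) lower in tumors. At least 2-fold changes were more often increases, with 1470 genes higher (7.61%) and 629 lower (3.26%). The median difference of all genes was -0.08. Counts of list members given below are to be read beside the 13.0% higher and 11.3% lower of all genes. In 2318 of the 2519 higher genes (92%) and 1944 of the 2187 lower genes (88.9%) every tumor lay outside the range of the normal arrays. Over all 19309 genes, called or not, all tumors were above all normal arrays in 2657 (13.8%) and below them in 2695 (14.0%). Such separation is common among called genes and adds little to a call. The 8 arrays were not all alike. Normal array 2 was the lowest normal array for 1575 (62.5%) of the higher genes, and without it 1897 genes were higher and 1302 lower. Tumors 1 and 2 stood apart from tumors 3 to 5: they correlated more with the Dnmt3a-deficient tumors (mean r over genes 0.972 and 0.971) than with the other control tumors (0.956 and 0.951), and their 75th percentile was 8.47 and 8.44 against 8.16 to 8.19 in tumors 3 to 5 and 8.04 to 8.12 in normal arrays. Without tumors 1 and 2, 2497 genes were higher and 2404 lower, of which 2185 and 1667 were also called with them. The fit of the 8 arrays alone, without the Dnmt3a-deficient tumors, gave 2179 genes higher and 1594 lower. A repeated quantile normalization of the deposited values moved the share of calls that were increases from 53.5% to 46.7%.

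Myc and Mycn fell, as did Mxd1 and Mxd3, which encode MAX partners that oppose them, while Mga, a MAX-binding repressor, rose. Of 15 measured members of the MYC and MAX network, 1 was higher and 5 were lower, with a median difference of -0.28. Myc read 9.43, 9.86 and 9.51 in normal thymocytes and 6.26, 5.99, 6.91, 7.49 and 6.61 in tumors 1 to 5, and Mycn, its paralog, read 7.24, 7.42 and 7.15 in normal thymocytes and 6.17, 5.70, 5.96, 6.57 and 6.45 in tumors 1 to 5. No tumor reached the lowest normal array for either gene. The difference was -2.95 (SE 0.28, limma adjusted p = 1.0e-05) for Myc and -1.10 (SE 0.193, limma adjusted p = 9.7e-04) for Mycn, and no source used here says whether this probe set detects the transgene. Mxd3, a MAX partner that represses E-box genes, read 8.55, 8.26 and 7.96 in normal thymocytes and 7.08, 6.78, 6.46, 7.10 and 6.85 in tumors 1 to 5. Its difference was -1.41 (SE 0.178, limma adjusted p = 8.6e-05), and the related Mxd1 differed by -0.89 (SE 0.169, limma adjusted p = 0.00175), both with all tumors below all normal arrays. Mga, a large MAX-binding repressor, was the member called higher, at 7.20, 6.14 and 7.65 in normal thymocytes and 9.61, 9.25, 8.87, 8.37 and 8.97 in tumors 1 to 5, with a difference of 2.02 (SE 0.307, limma adjusted p = 3.4e-04). Max itself overlapped between groups, with 9.40 to 9.77 in normal and 9.62 to 10.34 in tumor arrays and a difference of 0.29 (SE 0.168, limma adjusted p = 0.233). Mxd4, another MAX partner, was at 10.40 to 10.46 in normal arrays and 8.29 to 10.44 in tumors (-1.09 (SE 0.423, limma adjusted p = 0.0779)), with tumor 1 inside the normal range. The fifth lower member, Zbtb17, which encodes a zinc finger partner of MYC, differed by -0.48 (SE 0.163, limma adjusted p = 0.0487) with overlapping groups, and its call ended without normal array 1 or 2 or tumor 3, 4 or 5, in the fit of the 8 arrays alone, after median centring or with an intensity trend and robust prior (adjusted p 0.0531 to 0.161). Mxd4 was called without tumors 1 and 2 or tumor 1, after cyclic loess or with array weights (adjusted p 0.00881 to 0.0387).

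Genes that assemble ribosomes rose nearly as a body. Of 51 nucleolar assembly factors, 42 (82.4%) were higher and 1 lower, against 13.0% and 11.3% of all genes, and the median difference was 1.24. Ncl, nucleolin, read 9.34, 7.71 and 9.28 in normal thymocytes and 11.61, 11.66, 11.95, 11.54 and 11.50 in tumors 1 to 5 (difference 2.88 (SE 0.292, limma adjusted p = 1.7e-05)). Nop58, a core protein of the C/D small nucleolar particles that methylate ribosomal RNA, read 7.74, 6.45 and 7.97 in normal thymocytes and 9.81, 9.86, 10.94, 10.54 and 10.61 in tumors 1 to 5 (difference 2.97 (SE 0.33, limma adjusted p = 3.2e-05)). The highest normal array was below the lowest tumor for both, and normal array 2 was the lowest of the 8. Its partners Fbl, the methyltransferase fibrillarin, and Nop56 differed by 1.15 (SE 0.15, limma adjusted p = 1.1e-04) and 0.71 (SE 0.119, limma adjusted p = 6.9e-04). All 4 core proteins of the H/ACA particle, which pseudouridylates RNA and also holds telomerase RNA, were called higher, by 3.24 for Dkc1, 1.24 for Nop10, 0.70 for Gar1 and 0.64 for Nhp2. The smaller of these calls ended for Gar1 without normal array 1, 2 or 3 or tumor 3 or 4, in the fit of the 8 arrays alone, after a repeated quantile normalization or after cyclic loess (adjusted p 0.0513 to 0.126), and for Nhp2 without normal array 1 or 3, after a repeated quantile normalization or after cyclic loess (adjusted p 0.0692 to 0.12). Naf1 and Shq1, which assemble the H/ACA particle, differed by 1.72 (SE 0.275, limma adjusted p = 4.9e-04) and 1.38 (SE 0.166, limma adjusted p = 5.7e-05).

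**Figure D1:**
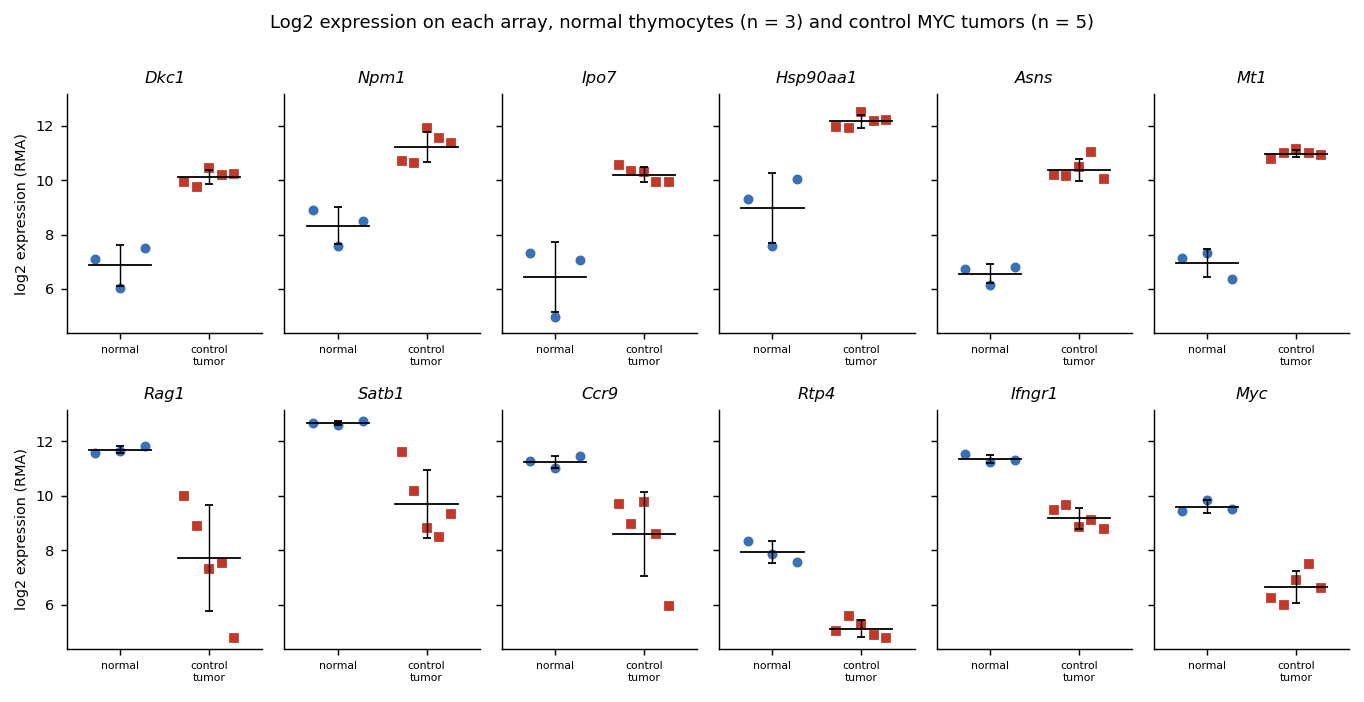
Log2 RMA value of 12 genes in each of the 3 normal thymocyte arrays and 5 control tumor arrays, with a line at the group mean and bars of 1 SD. Dkc1, Npm1, Ipo7, Hsp90aa1, Asns and Mt1 sit higher in every tumor than in any normal array, Rag1, Satb1, Ccr9, Rtp4, Ifngr1 and Myc lower, and normal array 2 is the lowest point for Ipo7 (4.98) and Hsp90aa1 (7.57).

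Promoters of some genes called higher, other than those just described, are shown because E-boxes are the sequence that MYC and MAX are known to bind. In windows of 250 bases before to 50 after the start site (RefSeq, GRCm38.p6; 18643 windows of 15151 tested genes), CACGTG, which reads the same on both strands, stood in 8.30% of all windows, 10.5% of those of the brighter 50% of genes, 12.6% of those of genes called higher and 9.42% of those called lower. It stood in 10 of 46 windows (21.7%) of nucleolar factors, 9 of 48 (18.8%) of nuclear pore and transport genes, 5 of 41 (12.2%) of purine and pyrimidine genes and 0 of 39 of double-positive genes. Stretches of 60 bases follow for 6 genes called higher that hold it before the start site, to which this choice was limited. They run 5′ to 3′ on the gene's strand with CACGTG in capitals, and binding was not measured. They are Utp18 at chr11:93885767-93885826 (minus strand) and Nop2 at chr6:125131796-125131855 (plus strand), 2 nucleolar factors, Paics at chr5:76951072-76951131 (plus strand) and Atic at chr1:71557096-71557155 (plus strand), 2 enzymes of purine synthesis, and Ipo7 at chr7:110018151-110018210 (plus strand) and Ranbp2 at chr10:58446738-58446797 (plus strand), 2 genes of nuclear transport.
Utp18: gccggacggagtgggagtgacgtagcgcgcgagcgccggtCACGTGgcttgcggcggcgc
Nop2: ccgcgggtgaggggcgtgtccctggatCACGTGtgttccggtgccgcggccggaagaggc
Paics: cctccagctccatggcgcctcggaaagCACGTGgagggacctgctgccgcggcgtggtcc
Atic: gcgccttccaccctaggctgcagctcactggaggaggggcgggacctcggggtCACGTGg
Ipo7: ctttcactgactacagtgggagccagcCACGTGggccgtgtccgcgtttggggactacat
Ranbp2: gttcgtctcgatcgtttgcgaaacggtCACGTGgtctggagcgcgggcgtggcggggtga
Utp18, a subunit of the complex that cleaves ribosomal RNA precursors, read 6.77, 6.47 and 6.78 in normal thymocytes and 8.85, 8.58, 8.58, 8.54 and 8.10 in tumors 1 to 5 (1.85 (SE 0.169, limma adjusted p = 7.6e-06)). Nop2, a ribosomal RNA methyltransferase, read 9.32, 9.35 and 8.84 in normal thymocytes and 10.03, 9.93, 9.93, 10.32 and 10.13 in tumors 1 to 5 (0.90 (SE 0.151, limma adjusted p = 7.4e-04)). In both genes every tumor was above every normal array, and tumor 5 was the lowest tumor for Utp18.

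RNA polymerases I and III, which transcribe ribosomal RNA and transfer RNA, changed in part. Of 31 members 14 were higher (45.2%) and 4 lower (12.9%) against 13.0% and 11.3% of all genes, with a median of 0.36. Polr1b, the second largest subunit of polymerase I, read 8.49, 8.60 and 8.50 in normal thymocytes and 10.83, 10.77, 10.06, 10.34 and 10.43 in tumors 1 to 5 (1.96 (SE 0.166, limma adjusted p = 4.6e-06)), and its largest subunit Polr1a differed by 1.53 (SE 0.149, limma adjusted p = 1.2e-05). Bdp1, a part of the polymerase III initiation factor TFIIIB, differed by 2.005 (SE 0.23, limma adjusted p = 4.0e-05), whereas Brf1, another part of TFIIIB, was lower at 9.64, 9.41 and 9.46 in normal thymocytes and 8.69, 8.40, 8.99, 9.11 and 8.89 in tumors 1 to 5 (-0.69 (SE 0.181, limma adjusted p = 0.013)). Znrd1, a small polymerase I subunit, was lower, differing by -0.85 (SE 0.169, limma adjusted p = 0.00241). Polymerase subunits therefore did not move in 1 direction, while the large catalytic subunit of polymerase I was higher in all 5 tumors. Of 50 small nucleolar RNAs 11 were higher (22%) and 5 lower (10%), with a median of 0.38. Without normal array 1, 2 or 3 only 6 were higher, and without normal array 3 the lower ones, 7, were the more numerous. Snora75 read 6.93, 6.41 and 6.73 in normal thymocytes and 9.46, 8.86, 9.01, 9.11 and 9.29 in tumors 1 to 5 (2.46 (SE 0.172, limma adjusted p = 1.5e-06)), and Snord61 read 8.95, 9.25 and 9.25 in normal thymocytes and 6.53, 5.36, 7.47, 7.28 and 7.42 in tumors 1 to 5 (-2.34 (SE 0.438, limma adjusted p = 0.00156)). Of 13 genes that host them 7 were higher and 0 lower (median 0.61). The call of Brf1 ended without normal array 1 (adjusted p = 0.0613).

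Proteins of the ribosome itself rose in part. Of 61 cytosolic ribosomal proteins 21 were higher (34.4% against 13.0% of all genes) and 0 lower, with a median of 0.31. Of 76 mitochondrial ones 18 were higher (23.7%) and 0 lower, with a median of 0.26 (11 higher without normal array 3). Rpl5, which escorts a small ribosomal RNA into the ribosome, read 10.96, 10.93 and 11.02 in normal thymocytes and 11.95, 11.80, 12.48, 12.40 and 12.35 in tumors 1 to 5 (1.23 (SE 0.161, limma adjusted p = 1.2e-04)). Rpl4 and Rpl7 differed by 1.24 and 1.21, and for all 3 tumors 3 to 5 were above tumors 1 and 2. The mitochondrial Mrpl1 differed by 2.21 (SE 0.22, limma adjusted p = 1.4e-05).

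Translation factors and the enzymes that load transfer RNA rose in part. Of 44 initiation factors 23 were higher and 3 lower (median 0.54), and of 37 aminoacyl tRNA synthetases 18 were higher and 1 lower (median 0.51). Of 11 measured subunits of eIF3, the scaffold that recruits the small ribosomal subunit, 9 were higher and 0 lower, with differences from 0.03 to 2.28. Eif3a, its largest subunit, read 8.53, 7.62 and 8.77 in normal thymocytes and 10.16, 10.11, 11.03, 10.78 and 10.77 in tumors 1 to 5 (2.27 (SE 0.263, limma adjusted p = 4.3e-05)). Tumors 3 to 5 were the highest, and all tumors were above all normal arrays. Eif2b3, a subunit of the exchange factor that recharges eIF2, differed by 2.22 (SE 0.171, limma adjusted p = 2.7e-06). Eif4e3, a cap-binding protein of the eIF4E family, was lower at 9.45, 9.08 and 9.47 in normal thymocytes and 8.57, 7.94, 6.04, 5.90 and 6.74 in tumors 1 to 5 (-2.29 (SE 0.533, limma adjusted p = 0.0065)), with tumor 1 closest to the normal arrays. Eprs, which loads glutamate and proline, read 7.80, 7.23 and 8.01 in normal thymocytes and 10.35, 10.42, 10.56, 10.27 and 10.33 in tumors 1 to 5 (2.70 (SE 0.182, limma adjusted p = 1.1e-06)). Lars and Rars, which load leucine and arginine, differed by 2.03 and 1.98.

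Most chaperones rose. Of 49 members of the chaperone list 32 were higher and 1 lower (median 0.75). Of the 8 subunits of the CCT chaperonin, the ring that folds actin and tubulin, 7 were higher. Cct8 read 9.56, 8.84 and 9.72 in normal thymocytes and 10.50, 10.70, 11.97, 11.70 and 11.54 in tumors 1 to 5 (1.91 (SE 0.312, limma adjusted p = 5.9e-04)). Cct7 did not pass the test and overlapped, at 10.93 to 10.98 in normal arrays and 10.32 to 11.38 in tumors (-0.04 (SE 0.239, limma adjusted p = 0.929)), with tumors 1 and 2 below and tumors 3 to 5 above the normal arrays. Hspd1, the mitochondrial chaperonin, read 8.98, 8.56 and 9.29 in normal thymocytes and 11.54, 11.38, 11.86, 11.57 and 11.68 in tumors 1 to 5 (2.66 (SE 0.166, limma adjusted p = 7.5e-07)), and Hsp90aa1, the inducible cytosolic HSP90, read 9.31, 7.57 and 10.04 in normal thymocytes and 11.96, 11.90, 12.50, 12.18 and 12.22 in tumors 1 to 5 (3.18 (SE 0.396, limma adjusted p = 7.7e-05)). Both had all tumors above all normal arrays. The lower member was Dnajb1, a heat-induced partner of HSP70, at -1.03 (SE 0.298, limma adjusted p = 0.0228), and its call ended without normal array 2 or 3 (adjusted p 0.0721 to 0.0889). It differed by -0.64 without tumors 1 and 2.

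Most genes of transport between nucleus and cytoplasm rose. Of 50 nuclear pore and transport genes 34 were higher and 0 lower, with a median of 0.89. Ipo7, an import receptor for ribosomal proteins and histones, read 7.31, 4.98 and 7.07 in normal thymocytes and 10.56, 10.32, 10.28, 9.92 and 9.92 in tumors 1 to 5 (3.75 (SE 0.397, limma adjusted p = 2.3e-05)). Ranbp2, the nucleoporin of the cytoplasmic filaments, read 7.33, 6.13 and 7.84 in normal thymocytes and 9.96, 10.17, 9.76, 9.18 and 9.27 in tumors 1 to 5 (2.57 (SE 0.324, limma adjusted p = 8.5e-05)). Xpo1, the main export receptor, differed by 2.17 (SE 0.209, limma adjusted p = 1.2e-05). In these 3 genes no tumor fell within the normal range, and normal array 2 was the lowest array.

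Nucleotide synthesis rose along most of the purine pathway. Of 37 purine and pyrimidine genes 25 were higher and 2 lower (median 0.74). Of 8 genes for the steps that supply phosphoribosyl pyrophosphate and build the purine ring, 7 were higher: Prps1 by 1.16, Ppat by 1.42, Gart by 0.73, Pfas by 0.63, Paics by 0.86, Adsl by 0.74 and Atic by 0.53. Ppat, the committing step, read 8.67, 8.81 and 9.08 in normal thymocytes and 9.74, 9.76, 10.75, 10.63 and 10.49 in tumors 1 to 5 (1.42 (SE 0.238, limma adjusted p = 7.1e-04)), with tumors 3 to 5 above tumors 1 and 2. Prps2 was the member not called, at 10.04, 9.81 and 9.97 in normal thymocytes and 10.71, 10.44, 9.71, 9.30 and 9.85 in tumors 1 to 5 (0.06 (SE 0.263, limma adjusted p = 0.89)), with tumors 1 and 2 above the normal arrays, tumors 3 and 4 below them and tumor 5 within their range, and it read 10.69 to 11.18 in the Dnmt3a-deficient tumors. The branches from IMP to GMP and AMP were higher at Gmps (2.14 (SE 0.21, limma adjusted p = 1.3e-05)) and Adss (1.93 (SE 0.14, limma adjusted p = 1.8e-06)). Of the 3 genes of pyrimidine ring synthesis Cad was higher at 9.14, 9.10 and 8.90 in normal thymocytes and 10.07, 10.11, 10.32, 10.23 and 10.51 in tumors 1 to 5 (1.20 (SE 0.143, limma adjusted p = 5.2e-05)), while Dhodh and Umps overlapped and were not called (adjusted p = 0.0636 and 0.345). Dck, which salvages deoxynucleosides, was lower at 10.55, 10.46 and 10.46 in normal thymocytes and 9.63, 8.86, 9.68, 9.51 and 9.36 in tumors 1 to 5 (-1.08 (SE 0.218, limma adjusted p = 0.00258)). Srm, the spermidine synthase, differed by 1.52 (SE 0.15, limma adjusted p = 1.4e-05). The call of Pfas ended after cyclic loess (adjusted p = 0.0508). The call of Atic ended without normal array 2, in the fit of the 8 arrays alone or after cyclic loess (adjusted p 0.0548 to 0.155). Dhodh was called without tumors 1 and 2 or normal array 1 or without the dimmest 50% of genes (adjusted p 0.0174 to 0.0453). Umps was called without tumors 1 and 2 (adjusted p = 0.00646).

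Amino acid supply and 1-carbon genes rose in part. Of 37 members of the ATF4 and amino acid list 13 were higher and 1 lower (median 0.41). Bcat1, the cytosolic branched-chain aminotransferase, read 7.50, 7.66 and 7.54 in normal thymocytes and 10.01, 10.11, 9.77, 10.002 and 9.49 in tumors 1 to 5 (2.31 (SE 0.188, limma adjusted p = 3.4e-06)), and Slc7a1, an arginine and lysine importer, differed by 1.56 (SE 0.158, limma adjusted p = 1.6e-05). Mthfd2, a mitochondrial folate enzyme, read 7.51, 7.85 and 7.98 in normal thymocytes and 9.42, 9.70, 9.17, 9.23 and 8.20 in tumors 1 to 5 (1.36 (SE 0.266, limma adjusted p = 0.0021)), with tumor 5 lowest. The lower member was Glul, glutamine synthetase, at 10.32, 10.31 and 10.35 in normal thymocytes and 8.74, 9.45, 8.81, 7.55 and 8.38 in tumors 1 to 5 (-1.74 (SE 0.315, limma adjusted p = 0.00122)), with every tumor below every normal array. The amino acid response element TTGCATCA, searched on both strands, stood in 8 of 40 windows of the list (20%). It stood in 0.687% of all windows and 0.487% of those of genes called higher. The list was chosen to hold ATF4 targets, so its share is not a separate result about these tumors. One of the 8 windows is the promoter of Got1, the cytosolic aspartate aminotransferase, shown at chr19:43524674-43524733 (minus strand) with the element in capitals.
Got1: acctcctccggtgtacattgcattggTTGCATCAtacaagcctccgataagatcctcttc
Got1 read 9.42, 9.59 and 9.38 in normal thymocytes and 10.98, 11.11, 10.46, 10.63 and 10.22 in tumors 1 to 5 (1.22 (SE 0.198, limma adjusted p = 5.6e-04)), with all tumors above all normal arrays.

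Glucose genes shifted between isoforms. Of 28 glycolysis genes 14 were higher and 3 lower (median 0.46), and 9 were higher after a repeated quantile normalization or cyclic loess. Hk2, the inducible hexokinase, read 6.83, 7.04 and 7.07 in normal thymocytes and 7.93, 7.92, 8.47, 8.36 and 7.86 in tumors 1 to 5 (1.13 (SE 0.165, limma adjusted p = 2.6e-04)). Hk1, the constitutive form, read 9.05, 9.06 and 9.27 in normal thymocytes and 8.55, 8.39, 8.05, 7.91 and 8.38 in tumors 1 to 5 (-0.87 (SE 0.155, limma adjusted p = 0.0011)). Both separated all tumors from all normal arrays, in opposite directions. Ldha, the lactate dehydrogenase subunit that favours lactate formation, read 12.12, 12.13 and 12.14 in normal thymocytes and 12.79, 12.92, 12.69, 12.63 and 12.58 in tumors 1 to 5 (0.59 (SE 0.123, limma adjusted p = 0.00313)). Ldhb, the other subunit, read 10.92, 10.92 and 10.81 in normal thymocytes and 10.06, 9.37, 5.52, 5.45 and 7.69 in tumors 1 to 5 (-3.27 (SE 0.887, limma adjusted p = 0.0159)), with the lowest values in tumors 3 and 4 and values near the normal arrays in tumor 1. The call of Ldhb ended without normal array 1 or 2 (adjusted p 0.0535 to 0.0588). Pdk1, which restrains entry of pyruvate into mitochondria, was higher by 0.82 (SE 0.151, limma adjusted p = 0.00135). The call of Ldha ended after cyclic loess (adjusted p = 0.0513).

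Mitochondrial import and carrier genes rose in part, while few respiratory chain genes were called. Of 49 carrier and import genes 23 were higher and 4 lower (median 0.46). Tomm70a, an outer membrane import receptor, read 7.49, 7.25 and 7.83 in normal thymocytes and 9.35, 9.34, 9.96, 9.72 and 9.57 in tumors 1 to 5 (2.07 (SE 0.171, limma adjusted p = 3.9e-06)). Of 83 respiratory chain genes 10 were higher (12%) and 2 lower (2.41%) against 13.0% and 11.3% of all genes, with a median of 0.09 that was -0.01 after a repeated quantile normalization and -0.05 after cyclic loess, and 5 were higher without normal array 2. Cox7b, a cytochrome c oxidase subunit, read 8.16, 8.32 and 8.20 in normal thymocytes and 11.32, 11.46, 9.74, 9.60 and 9.42 in tumors 1 to 5 (2.08 (SE 0.416, limma adjusted p = 0.00244)), with tumors 1 and 2 well above the other 3 and a difference of 1.36 without them. Of the 25 cholesterol genes 6 were higher (24%) and 3 lower (12%). These counts became 3 and 5 after a repeated quantile normalization, and the median of 0.06 became -0.12. Without normal array 3, 3 were higher. Stard4, which carries cholesterol between membranes, was higher by 1.43 (SE 0.167, limma adjusted p = 4.4e-05), and Abcg1, which exports it, was lower at 10.94, 11.05 and 10.96 in normal thymocytes and 9.61, 10.06, 8.52, 8.72 and 8.71 in tumors 1 to 5 (-1.86 (SE 0.304, limma adjusted p = 5.8e-04)).

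Metal handling was led by the metallothioneins. Of 25 genes 7 were higher (28%) and 1 lower (4%) against 13.0% and 11.3% of all genes (median 0.22). Mt2 read 6.24, 5.51 and 5.51 in normal thymocytes and 10.57, 12.07, 8.98, 8.99 and 7.74 in tumors 1 to 5 (3.92 (SE 0.733, limma adjusted p = 0.00156)), highest in tumor 2 and lowest in tumor 5. Mt1 read 7.14, 7.33 and 6.36 in normal thymocytes and 10.77, 11.01, 11.12, 10.98 and 10.93 in tumors 1 to 5, with a narrower spread between tumors. Slc39a10, a zinc importer, and Ireb2, which controls iron-responsive messages, differed by 2.15 (SE 0.234, limma adjusted p = 2.7e-05) and 1.64 (SE 0.18, limma adjusted p = 3.0e-05). Tumor 2 also had the highest mean of the adipocyte marker list (8.26 against 5.35 to 5.57 in the other tumor and normal arrays), and the part of this in the Mt2 value was not tested.

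**Figure D2:**
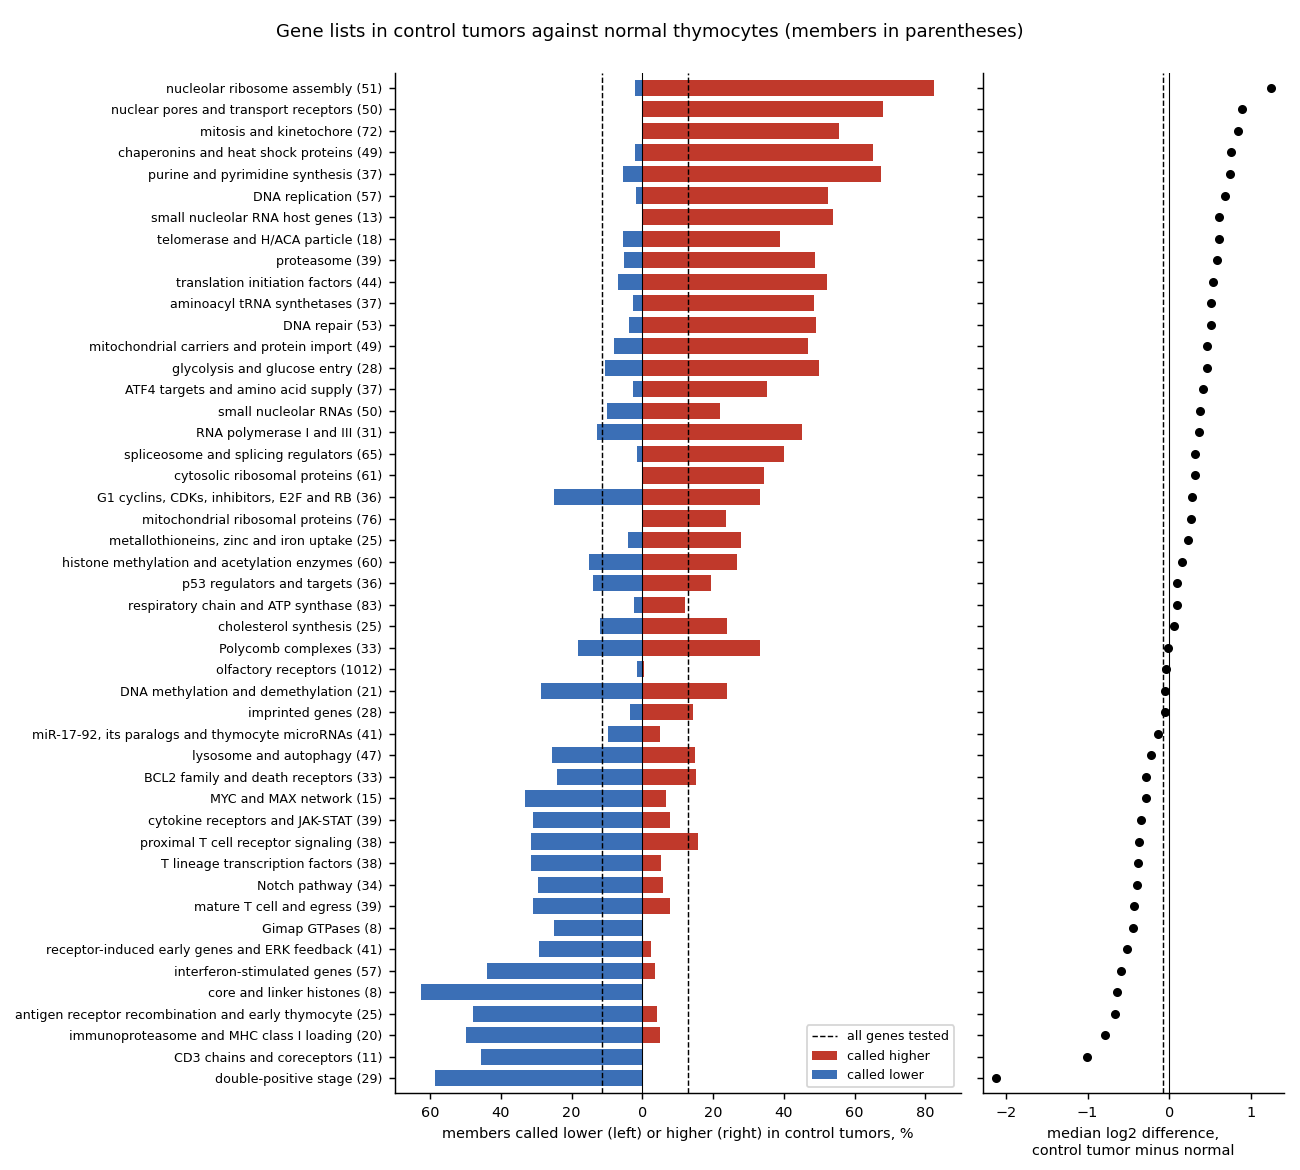
Left, percent of the members of each gene list called lower and higher in control tumors against normal thymocytes, with dashed lines at the share of all genes (11.3% lower, 13.0% higher). Right, median log2 difference of each list. Nucleolar factors reach 82.4% higher with a median of 1.24, and the double-positive list has the lowest median, -2.12.

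More than 1 in 2 genes of mitosis rose. Of 72 members 40 were higher and 0 lower, with a median of 0.84. Of the 8 condensin subunits, which compact chromosomes, Smc2, Smc4, Ncapg and Ncapg2 were higher and Ncaph2, of condensin II, was lower (-0.62 (SE 0.151, limma adjusted p = 0.00869)). Ncapg read 6.78, 5.38 and 6.92 in normal thymocytes and 9.22, 9.15, 9.65, 8.96 and 9.03 in tumors 1 to 5 (2.84 (SE 0.291, limma adjusted p = 1.8e-05)). Cenpe, a kinetochore motor, read 5.95, 4.62 and 6.01 in normal thymocytes and 9.24, 8.67, 8.08, 7.40 and 6.80 in tumors 1 to 5 (2.51 (SE 0.464, limma adjusted p = 0.00141)), highest in tumor 1 and lowest in tumor 5. In both genes normal array 2 was the lowest, and without it Smc4 differed by 0.95, against 1.69 with it.

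The cell cycle homology region, TTTGAA or its reverse complement TTCAAA, is shown because it is the element through which resting cells are known to repress mitotic genes. It stood in 44 of 66 windows of the mitosis list (66.7%) against 14.8% of all windows, 14% of those of genes called higher and 37.1% of those of olfactory receptors, which are rich in A and T. Stretches follow for Kif11, the spindle motor, at chr19:37376322-37376381 (plus strand), and for the condensin genes Ncapg at chr5:45669865-45669924 (plus strand) and Smc2 at chr4:52439049-52439108 (plus strand), with the motif in capitals.
Kif11: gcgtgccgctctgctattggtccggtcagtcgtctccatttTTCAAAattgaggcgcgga
Ncapg: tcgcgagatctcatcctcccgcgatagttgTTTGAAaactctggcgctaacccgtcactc
Smc2: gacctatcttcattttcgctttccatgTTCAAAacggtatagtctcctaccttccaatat
Smc2 read 6.62, 5.25 and 7.36 in normal thymocytes and 9.63, 9.50, 9.27, 8.72 and 8.75 in tumors 1 to 5 (2.77 (SE 0.368, limma adjusted p = 1.3e-04)), with all tumors above all normal arrays.

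In DNA replication the origin recognition complex rose as a whole and the MCM helicase did not. Of 57 replication genes 30 were higher and 1 lower (median 0.68). All 6 origin recognition subunits were higher, by 0.81 to 2.24. Orc2 read 7.18, 6.63 and 7.10 in normal thymocytes and 9.06, 9.21, 9.65, 9.08 and 9.07 in tumors 1 to 5 (2.24 (SE 0.171, limma adjusted p = 2.6e-06)). Of the 6 subunits of the MCM2-7 helicase, which unwinds DNA at the fork, Mcm4 (1.07 (SE 0.137, limma adjusted p = 9.9e-05)) and Mcm6 (0.76 (SE 0.198, limma adjusted p = 0.0124)) were higher. Mcm7 overlapped, at 10.86 to 10.97 in normal arrays and 10.80 to 11.06 in tumors (0.01 (SE 0.128, limma adjusted p = 0.959)), as did Mcm2, Mcm3 and Mcm5, with differences of -0.04, -0.21 and 0.02. The difference between the complexes was not tested. The call of Mcm6 ended without normal array 2 or after cyclic loess (adjusted p 0.069 to 0.0746).

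Regulators of entry into the cycle split. Of 36 G1 genes 12 were higher (33.3%) and 9 lower (25%) against 13.0% and 11.3% of all genes (median 0.28). Cdkn2d, an inhibitor of CDK4 and CDK6, read 9.79, 9.86 and 9.81 in normal thymocytes and 7.06, 6.78, 7.71, 7.999 and 7.41 in tumors 1 to 5 (-2.43 (SE 0.23, limma adjusted p = 1.0e-05)). Cdkn1b, a CDK inhibitor of resting cells, read 10.36, 10.25 and 10.34 in normal thymocytes and 10.07, 9.17, 8.78, 8.68 and 8.81 in tumors 1 to 5 (-1.21 (SE 0.277, limma adjusted p = 0.00578)), and by the mean of all its probe sets it differed by -1.96. Rbl2, a pocket protein of resting cells, was lower, differing by -1.02 (SE 0.207, limma adjusted p = 0.0027), and E2f2 was lower, differing by -1.39 (SE 0.243, limma adjusted p = 9.6e-04). Ccne2, a cyclin that activates CDK2, read 5.999, 5.76 and 6.63 in normal thymocytes and 7.92, 8.04, 7.36, 6.94 and 7.22 in tumors 1 to 5 (1.37 (SE 0.265, limma adjusted p = 0.002)), and the Dnmt3a-deficient tumors were higher still, by 1.21 (SE 0.243, limma adjusted p = 0.0453). In each of these 5 genes the tumors lay outside the normal range.

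DNA repair genes rose in part, while genes of the p53 list were called at shares not far from those of all genes. Of 53 DNA repair genes 26 were higher and 2 lower (median 0.51), and of 36 p53 regulators and targets 7 were higher (19.4%) and 5 lower (13.9%) against 13.0% and 11.3% of all genes (median 0.09, -0.03 without tumors 1 and 2). Atm, the kinase of double-strand breaks, read 5.95, 4.80 and 6.58 in normal thymocytes and 9.10, 9.02, 8.71, 8.44 and 8.52 in tumors 1 to 5 (2.98 (SE 0.307, limma adjusted p = 1.8e-05)), and Atr and Chek1, the kinases of stalled forks, differed by 2.66 and 2.76. All 3 subunits of the MRE11 complex, which senses broken ends, were higher: Rad50 by 2.36, Nbn by 1.35 and Mre11a by 1.32. With the mean of all its probe sets in place of the brightest, Nbn differed by 0.30 and was not called (adjusted p = 0.119). Gadd45a, a p53 target of growth arrest, read 8.46, 8.84 and 8.52 in normal thymocytes and 7.44, 6.92, 7.42, 7.34 and 8.03 in tumors 1 to 5 (-1.17 (SE 0.201, limma adjusted p = 8.1e-04)). Btg2, an antiproliferative target, differed by -1.43 (SE 0.214, limma adjusted p = 3.0e-04), and all tumors were below all normal arrays for both. Trp53 and Cdkn1a were not analysed here.

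Splicing and proteasome genes rose in part. Of 65 spliceosome genes 26 were higher and 1 lower (median 0.32, with 16 higher without normal array 2 and 17 after cyclic loess), and of 39 proteasome genes 19 were higher and 2 lower (median 0.58, with 11 higher after cyclic loess). Rbm25, a splicing regulator, differed by 2.04 (SE 0.256, limma adjusted p = 8.1e-05), and Psmd1, a scaffold of the proteasome's regulatory particle, read 8.28, 8.12 and 8.72 in normal thymocytes and 11.01, 11.28, 10.56, 10.40 and 10.15 in tumors 1 to 5 (2.30 (SE 0.234, limma adjusted p = 1.7e-05)). All tumors were above all normal arrays for both.

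**Figure D3:**
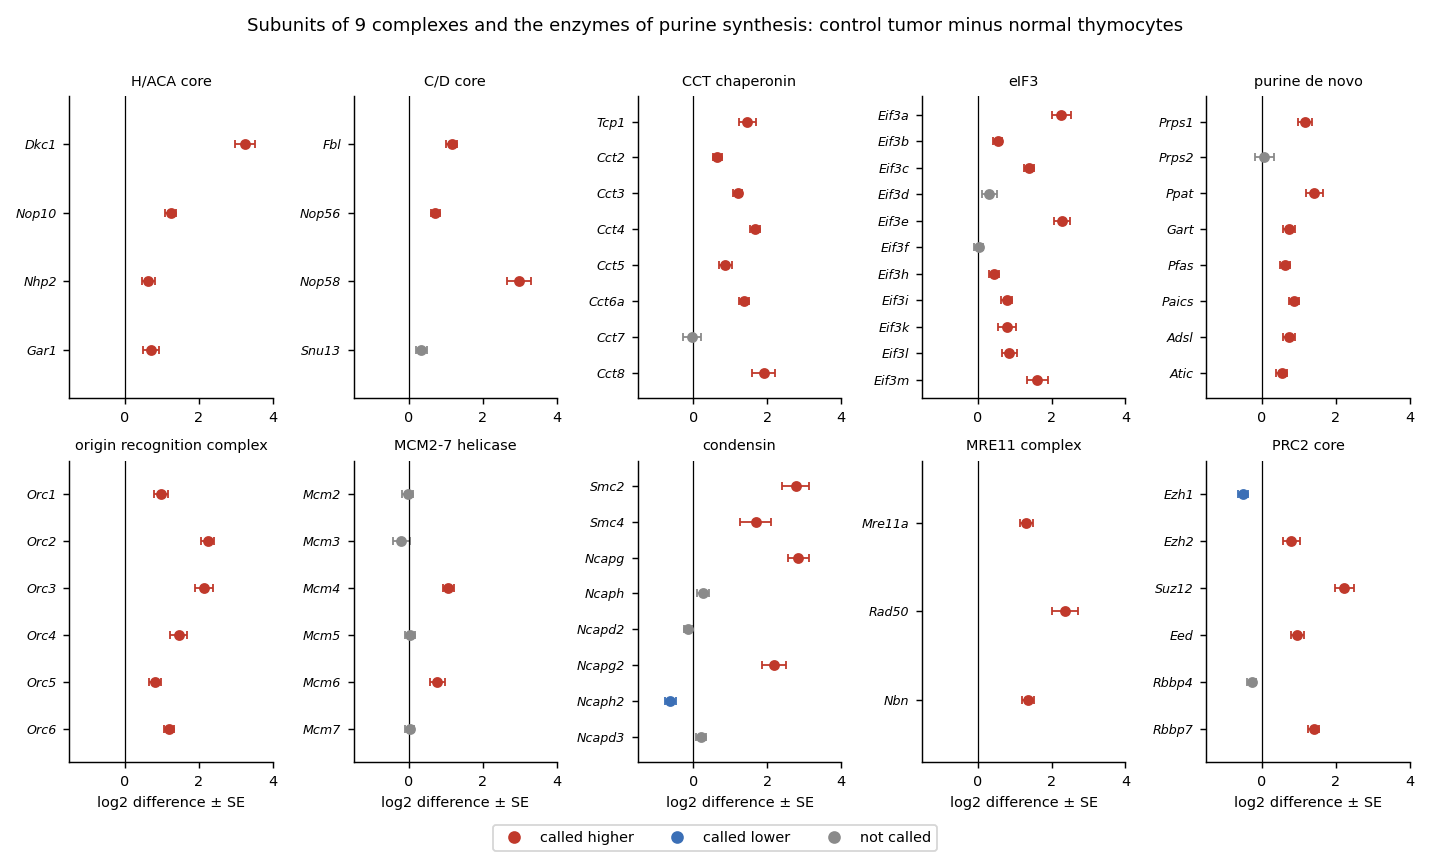
Log2 difference, control tumors minus normal thymocytes, with bars of 1 SE from limma, for the measured subunits of 9 protein complexes and the enzymes of purine synthesis. All 6 origin recognition subunits lie above 0 (0.81 to 2.24), whereas 4 of the 6 MCM2-7 subunits lie near 0.

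The double-positive program was the most reduced of the 47 lists by median. Of 29 members 0 were higher and 17 lower, with a median of -2.12. Plxnd1, a guidance receptor of double-positive cells, read 11.45, 11.39 and 11.36 in normal thymocytes and 9.25, 8.58, 6.99, 8.22 and 7.32 in tumors 1 to 5 (-3.33 (SE 0.406, limma adjusted p = 6.3e-05)). Rag2, a subunit of the recombinase, read 7.76, 7.41 and 7.88 in normal thymocytes and 6.21, 5.21, 3.75, 3.90 and 3.74 in tumors 1 to 5, with tumors 1 and 2 above tumors 3 to 5. Satb1, a chromatin organizer of thymocytes, read 12.67, 12.61 and 12.75 in normal thymocytes and 11.60, 10.18, 8.83, 8.48 and 9.34 in tumors 1 to 5 (-2.99 (SE 0.591, limma adjusted p = 0.00228)). Ccr9, the receptor for a thymic chemokine, read 11.28, 11.03 and 11.45 in normal thymocytes and 9.69, 8.96, 9.76, 8.59 and 5.97 in tumors 1 to 5 (-2.66 (SE 0.788, limma adjusted p = 0.0255)), lowest in tumor 5. All tumors were below all normal arrays for these 4 genes, but the call of Ccr9 ended without normal array 1, 2 or 3 (adjusted p 0.0682 to 0.0828). Of 25 recombination and early thymocyte genes 1 was higher and 12 were lower (median -0.66), and the higher one, Lmo2, is taken up with the spread between tumors.

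CD3 chains and coreceptors fell in part, with a wide spread between tumors. Of 11 CD3 chains and coreceptors 0 were higher and 5 lower (median -1.01), and 3 were lower without normal array 1 or 3. Cd3d, a CD3 chain, read 10.97, 11.01 and 10.83 in normal thymocytes and 9.42, 9.50, 10.15, 10.09 and 10.44 in tumors 1 to 5 (-1.01 (SE 0.228, limma adjusted p = 0.00535)). Cd6, a costimulatory receptor, read 11.41, 11.28 and 11.23 in normal thymocytes and 9.17, 8.78, 8.33, 7.93 and 10.49 in tumors 1 to 5 (-2.37 (SE 0.528, limma adjusted p = 0.00501)). Cd8a read 12.57, 12.53 and 12.62 in normal thymocytes and 11.40, 10.73, 10.08, 10.63 and 7.61 in tumors 1 to 5, lowest in tumor 5, and its partner Cd8b1 was lowest there too (12.06, 11.60, 11.03, 11.29 and 9.04) without passing the test (-1.37 (SE 0.592, limma adjusted p = 0.114)). All tumors were below all normal arrays for these 4 genes. The call of Cd8a (-2.49 (SE 0.795, limma adjusted p = 0.0365)) ended without normal array 1, 2 or 3 or tumor 3 (adjusted p 0.0594 to 0.102), and Cd8b1 was called without tumors 1 and 2 (adjusted p = 0.0324). Over the 13 measured T cell markers the array mean was 10.50 to 10.58 in normal arrays and 9.39 to 9.86 in tumors, with 0 of the 13 markers higher and 7 lower.

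Signaling genes below the receptor were more often lower than higher. Of 38 genes 6 were higher (15.8%, near the 13.0% of all genes) and 12 lower (31.6% against 11.3%). The median was -0.37, and 7 were lower without normal array 1. Sit1, an adaptor that dampens the receptor, read 10.17, 10.10 and 9.92 in normal thymocytes and 9.18, 9.14, 7.72, 7.83 and 7.64 in tumors 1 to 5 (-1.76 (SE 0.361, limma adjusted p = 0.00289)), and Pag1, which holds the inhibitory kinase CSK at the membrane, differed by -1.36 (SE 0.24, limma adjusted p = 0.00102). Cblb, a ubiquitin ligase that restrains T cell activation, was higher at 8.84, 8.76 and 8.68 in normal thymocytes and 9.78, 9.73, 10.68, 11.12 and 9.11 in tumors 1 to 5 (1.32 (SE 0.344, limma adjusted p = 0.0124)), highest in tumors 3 and 4. Ppp3ca, the catalytic subunit of calcineurin, was higher by 1.44 (SE 0.289, limma adjusted p = 0.00245) and Nfatc1, its target, lower, differing by -1.09 (SE 0.243, limma adjusted p = 0.00509). Of 41 receptor-induced early genes 1 was higher (2.44%) and 12 lower (29.3%), with a median of -0.52 and 7 lower without normal array 2. Btg1, an antiproliferative gene of resting lymphocytes, read 12.55, 12.47 and 12.57 in normal thymocytes and 10.89, 9.89, 10.32, 10.99 and 10.07 in tumors 1 to 5 (-2.10 (SE 0.245, limma adjusted p = 4.6e-05)), and Zfp36, which destabilizes cytokine messages, differed by -1.45 (SE 0.339, limma adjusted p = 0.00662), or -0.96 without tumors 1 and 2. The higher one was Nr4a2, an orphan nuclear receptor, at 6.53, 6.72 and 6.64 in normal thymocytes and 8.60, 7.60, 7.26, 8.09 and 8.63 in tumors 1 to 5 (1.41 (SE 0.312, limma adjusted p = 0.00484)).

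Transcription factors of the T lineage fell in part. Of 38 members 2 were higher and 12 lower (median -0.39), and 19 were lower without tumors 1 and 2. Klf3, a repressor of the Kruppel-like family, read 9.66, 9.41 and 9.64 in normal thymocytes and 6.23, 7.75, 7.67, 7.17 and 6.20 in tumors 1 to 5 (-2.56 (SE 0.367, limma adjusted p = 2.2e-04)). Bach2, a repressor that holds lymphocytes in a resting state, read 7.88, 7.90 and 7.63 in normal thymocytes and 5.78, 5.47, 5.83, 6.30 and 5.76 in tumors 1 to 5 (-1.97 (SE 0.175, limma adjusted p = 6.3e-06)). Zbtb7b, the factor of CD4 lineage choice, read 8.92, 9.05 and 8.98 in normal thymocytes and 6.73, 7.51, 6.80, 6.77 and 8.38 in tumors 1 to 5 (-1.74 (SE 0.413, limma adjusted p = 0.00736)), with tumor 5 nearest to normal arrays. Bcl11b, a factor of T cell commitment, read 10.37, 10.32 and 10.34 in normal thymocytes and 9.95, 9.52, 8.40, 8.93 and 9.20 in tumors 1 to 5 (-1.15 (SE 0.269, limma adjusted p = 0.00681)). No tumor overlapped the normal arrays in these 4 genes. The higher Zbtb16, the PLZF factor of innate-like T cells, differed by 2.02 (SE 0.684, limma adjusted p = 0.0467), and its call ended without tumors 1 and 2 or normal array 1, 2 or 3 or tumor 1, 2, 3 or 5, after a repeated quantile normalization, after cyclic loess, with an intensity trend and robust prior or with array weights (adjusted p 0.052 to 0.134).

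Of 34 Notch genes 2 were higher (5.88%) and 10 lower (29.4%) against 13.0% and 11.3% of all genes (median -0.40). Notch3, a receptor of early thymocytes, read 8.52, 8.30 and 8.11 in normal thymocytes and 6.42, 6.63, 6.81, 6.82 and 6.61 in tumors 1 to 5 (-1.65 (SE 0.161, limma adjusted p = 1.2e-05)), and Il2ra, a Notch-dependent receptor chain of early thymocytes, differed by -1.52 (SE 0.265, limma adjusted p = 9.4e-04). Adam10, the protease that releases Notch receptors, was higher at 7.91, 7.30 and 8.09 in normal thymocytes and 9.17, 9.21, 9.40, 9.19 and 9.17 in tumors 1 to 5 (1.46 (SE 0.163, limma adjusted p = 3.3e-05)). Of 39 cytokine receptor and JAK-STAT genes 3 were higher (7.69%) and 12 lower (30.8%), with a median of -0.35. Il9r, the receptor of the T cell growth factor IL-9, read 7.03, 7.18 and 7.0 in normal thymocytes and 10.05, 9.80, 10.24, 10.03 and 9.85 in tumors 1 to 5 (2.93 (SE 0.143, limma adjusted p = 2.0e-07)), above every normal array in all 5 tumors. It was the largest increase of the list, and Il17ra, a receptor chain for IL-17, was lower at 10.26, 10.47 and 10.65 in normal thymocytes and 8.86, 8.49, 8.51, 8.86 and 9.17 in tumors 1 to 5 (-1.68 (SE 0.176, limma adjusted p = 2.1e-05)). Of 39 genes of mature T cells and egress 3 were higher (7.69%) and 12 lower (30.8%), with a median of -0.43. Without normal array 1 or 2, 7 were lower. Itgal, an integrin chain of lymphocyte adhesion, differed by -1.88 (SE 0.355, limma adjusted p = 0.00166). Of 8 Gimap GTPases, which support survival of resting T cells, 0 were higher and 2 lower (25%), with a median of -0.44 that was 0.16 without tumors 1 and 2. Without normal array 1 or 2 the count was 0, and without normal array 3 it was 1. Gimap6 read 11.04, 10.998 and 11.02 in normal thymocytes and 9.06, 8.85, 9.52, 10.25 and 10.32 in tumors 1 to 5 (-1.42 (SE 0.419, limma adjusted p = 0.0249)), and its call ended without tumors 1 and 2 or normal array 1, 2 or 3 (adjusted p 0.0706 to 0.0995).

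Few microRNA precursors were called, and 3 of the 4 lower ones belonged to the miR-181 family, which tunes the sensitivity of the T cell receptor in double-positive cells. Of 41 members of the microRNA list 2 were higher (4.88%) and 4 lower (9.76%) against 13.0% and 11.3% of all genes (median -0.14). The array measures the precursor region and not the mature microRNA. The mature sequences (RefSeq, GRCm38.p6) of 3 that were lower follow, Mir181b-1 at chr1:137966650-137966673 (plus strand), Mir181a-1 at chr1:137966468-137966490 (plus strand) and Mir181d at chr8:84178759-84178781 (minus strand), with the seed, bases 2 to 8, in capitals. They share 1 seed.
miR-181b-5p: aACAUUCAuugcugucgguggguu
miR-181a-5p: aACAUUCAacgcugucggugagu
miR-181d-5p: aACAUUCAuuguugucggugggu
Mir181b-1 read 9.97, 9.25 and 9.80 in normal thymocytes and 8.73, 7.57, 5.59, 5.71 and 7.52 in tumors 1 to 5 (-2.65 (SE 0.588, limma adjusted p = 0.00483)), with the lowest values in tumors 3 and 4. Mir181a-1, of the same cluster, read 5.76, 5.15 and 6.68 in normal thymocytes and 4.66, 4.22, 4.32, 4.61 and 4.94 in tumors 1 to 5 (-1.31 (SE 0.274, limma adjusted p = 0.00323)), and Mir181d, of another cluster, differed by -0.61 (SE 0.145, limma adjusted p = 0.0072). The tumors were below all normal arrays for the 3 genes. For Mir181a-1 the tumor values were near the low end of the array's signal, where olfactory receptor means were 4.32 to 4.41 in tumors. Mir181a-2, Mir181b-2 and Mir181c did not pass the test, although Mir181b-2 was called lower without tumors 1 and 2. The MYC-induced cluster host Mir17hg was higher by 0.76 (SE 0.255, limma adjusted p = 0.044), and its call ended without tumors 1 and 2 or normal array 1, 2 or 3 or tumor 1, 2, 3 or 4 (adjusted p 0.0519 to 0.132).

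Interferon-stimulated genes fell in part. Of 57 members 2 were higher and 25 lower, with a median of -0.59. Slfn2, a Schlafen protein of lymphocyte quiescence, read 10.28, 10.23 and 10.01 in normal thymocytes and 7.22, 7.45, 7.64, 8.22 and 8.82 in tumors 1 to 5 (-2.31 (SE 0.392, limma adjusted p = 7.7e-04)). Ifi27 read 9.27, 9.28 and 9.01 in normal thymocytes and 7.30, 7.61, 6.95, 7.17 and 7.47 in tumors 1 to 5 (-1.89 (SE 0.184, limma adjusted p = 1.2e-05)), and Zbp1, a sensor of Z-form nucleic acid, differed by -1.58 (SE 0.188, limma adjusted p = 5.2e-05). The signaling chain was lower at several steps. Stat2 read 8.81, 8.81 and 8.90 in normal thymocytes and 7.74, 7.56, 7.72, 7.41 and 7.46 in tumors 1 to 5 (-1.26 (SE 0.155, limma adjusted p = 6.8e-05)) and Irf9 read 8.84, 8.84 and 8.82 in normal thymocytes and 7.67, 7.68, 7.37, 7.42 and 7.17 in tumors 1 to 5 (-1.38 (SE 0.161, limma adjusted p = 4.7e-05)), both parts of the factor ISGF3. Of the interferon receptor chains Ifnar1 (-1.02 (SE 0.145, limma adjusted p = 2.0e-04)), Ifngr1 (-2.19 (SE 0.243, limma adjusted p = 3.2e-05)) and Ifngr2 (-1.20 (SE 0.208, limma adjusted p = 8.9e-04)) were lower, and Ifnar2 overlapped and was not called (-0.03 (SE 0.128, limma adjusted p = 0.902)). The kinases below them went the other way: Jak1 was higher by 0.72 (SE 0.189, limma adjusted p = 0.0134) and Jak2 by 0.85 (SE 0.247, limma adjusted p = 0.0228), although these calls ended for Jak1 without normal array 2 or after cyclic loess (adjusted p 0.065 to 0.0776), and for Jak2 without normal array 2 or after a repeated quantile normalization (adjusted p 0.0708 to 0.146). Samd9l and Slfn5 were the interferon-stimulated genes called higher, with overlapping groups, and these calls ended for Samd9l without tumors 1 and 2 or normal array 1 or 2 or tumor 1, 2 or 5, in the fit of the 8 arrays alone, with an intensity trend and robust prior or with array weights (adjusted p 0.056 to 0.266), and for Slfn5 without tumors 1 and 2 or normal array 1, 2 or 3 or tumor 1, 2, 3 or 4 or in the fit of the 8 arrays alone (adjusted p 0.0509 to 0.164).

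Interferon-stimulated response elements are shown because ISGF3 is known to act through them. The element, searched as paired GAAA repeats 2 bases apart on both strands, stood in 25 of 54 windows of the list (46.3%) against 3.28% of all windows and 2.84% of those of all genes called lower. The list was chosen as interferon-stimulated genes, so its share is not a separate result about these tumors. Stretches follow for 4 members that were lower, Oas3 at chr5:120777700-120777759 (minus strand), Trim30a at chr7:104465195-104465254 (minus strand), Stat2 at chr10:128270251-128270310 (plus strand) and Irgm1 at chr11:48871421-48871480 (minus strand), with the element in capitals. In Irgm1 overlapping copies form 1 run.
Oas3: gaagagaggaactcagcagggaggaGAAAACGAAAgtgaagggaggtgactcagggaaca
Trim30a: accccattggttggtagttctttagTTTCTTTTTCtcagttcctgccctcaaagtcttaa
Stat2: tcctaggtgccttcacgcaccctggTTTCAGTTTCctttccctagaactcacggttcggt
Irgm1: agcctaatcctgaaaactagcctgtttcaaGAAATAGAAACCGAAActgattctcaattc
Oas3, a sensor of double-stranded RNA, read 7.14, 7.06 and 6.97 in normal thymocytes and 5.62, 5.44, 5.11, 6.12 and 6.03 in tumors 1 to 5 (-1.40 (SE 0.23, limma adjusted p = 6.2e-04)). Trim30a, which dampens inflammatory signaling, read 7.80, 7.71 and 7.79 in normal thymocytes and 6.86, 6.82, 6.43, 6.54 and 5.34 in tumors 1 to 5 (-1.37 (SE 0.302, limma adjusted p = 0.00473)), with tumor 5 lowest. Irgm1, a GTPase of autophagy and defence, differed by -1.12 (SE 0.292, limma adjusted p = 0.0129), and the Dnmt3a-deficient tumors, at 7.06 to 8.32, stood 1.59 (SE 0.268, limma adjusted p = 0.0221) above those with Dnmt3a. The call of Irgm1 ended without normal array 3 (adjusted p = 0.0512).

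Genes of class I antigen presentation fell in part. Of 20 immunoproteasome and MHC class I loading genes 1 was higher and 10 lower (median -0.79). H2-T10, a nonclassical class I gene, read 11.63, 11.54 and 11.47 in normal thymocytes and 8.40, 7.67, 7.50, 7.76 and 7.03 in tumors 1 to 5 (-3.87 (SE 0.568, limma adjusted p = 2.6e-04)), and Cd1d1, which presents lipids to NKT cells, read 9.13, 8.99 and 9.62 in normal thymocytes and 7.40, 7.46, 7.09, 7.43 and 7.13 in tumors 1 to 5 (-1.95 (SE 0.234, limma adjusted p = 5.8e-05)). Tap2, a subunit of the peptide transporter, differed by -1.03 (SE 0.221, limma adjusted p = 0.00391). All tumors were below all normal arrays for these genes. Probe sets of class I genes can share sequence with close relatives, so values of H2-T10, H2-T24 and H2-Q4 are uncertain as to the gene. Erap1, which trims peptides, was the member called higher, at 7.02, 5.84 and 7.37 in normal thymocytes and 8.19, 8.36, 8.81, 8.59 and 8.70 in tumors 1 to 5 (1.79 (SE 0.283, limma adjusted p = 4.7e-04)). Macrophage marker means overlapped between groups (6.35 to 6.53 in normal arrays, 6.03 to 7.66 in tumors), dendritic cell means were 7.11 to 7.23 against 6.47 to 6.99 and thymic epithelium means 6.56 to 6.73 against 5.98 to 6.33, and their part in the fall of presentation genes was not tested.

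**Figure D4:**
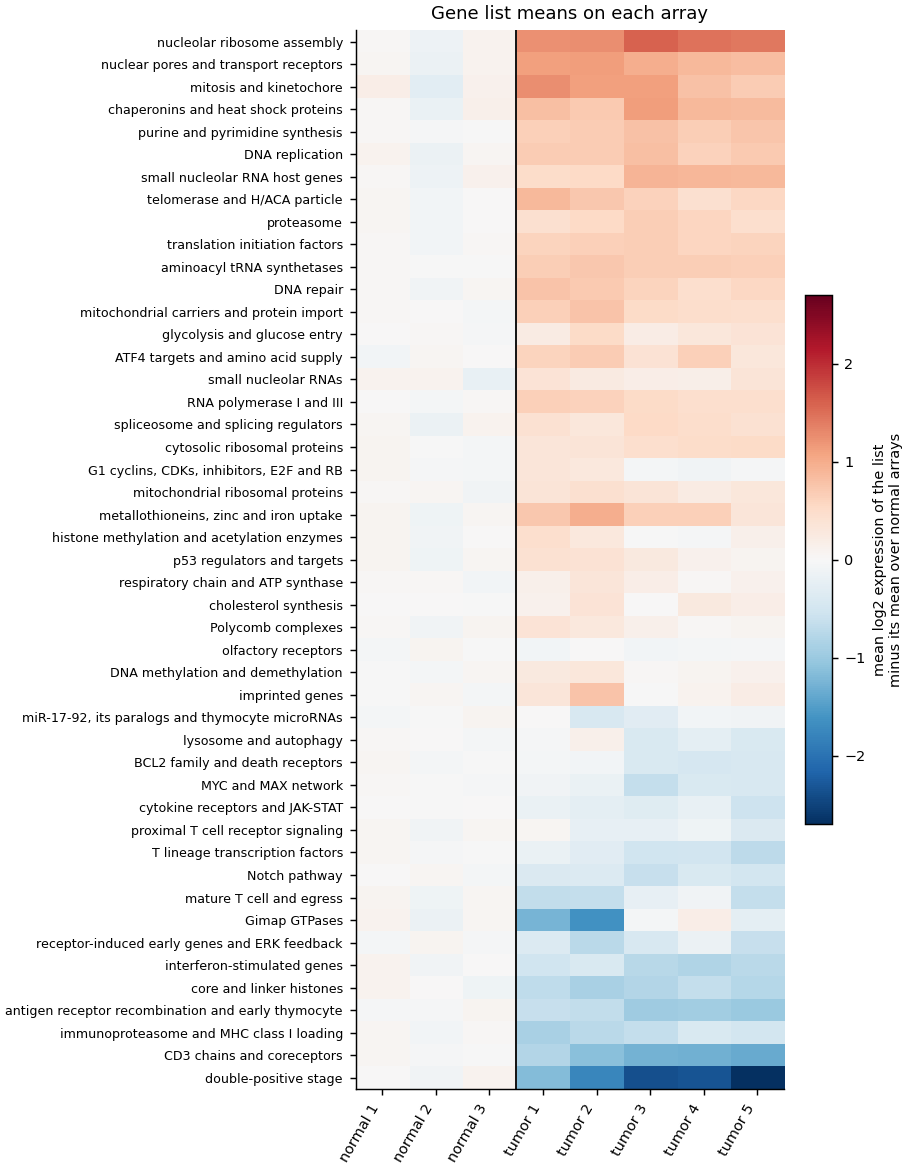
Heat map of the mean log2 value of each gene list on each of the 8 arrays, minus the mean of the 3 normal arrays. The double-positive, MHC and interferon lists are below 0 and the nucleolar and nuclear pore lists above 0 in all 5 tumors, and normal array 2 lies below the other normal arrays in several of the lists that are higher in tumors.

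Among genes of survival and death, ones with opposite roles fell. Of 33 BCL2 family and death receptor genes 5 were higher (15.2%) and 8 lower (24.2%) against 13.0% and 11.3% of all genes. The median was -0.28, and 13 were lower without tumors 1 and 2. Bcl2l11, the death inducer BIM, read 9.53, 9.31 and 9.61 in normal thymocytes and 8.82, 8.77, 7.95, 7.82 and 7.50 in tumors 1 to 5 (-1.31 (SE 0.31, limma adjusted p = 0.00709)), and Mcl1, a survival protein, read 11.47, 11.54 and 11.52 in normal thymocytes and 10.47, 9.92, 11.01, 10.87 and 10.77 in tumors 1 to 5 (-0.90 (SE 0.211, limma adjusted p = 0.00665)). Casp9, the caspase of the apoptosome, differed by -0.91 (SE 0.149, limma adjusted p = 5.6e-04). All 5 tumors were below the normal arrays for the 3 genes. Of the members called, 0 of the higher and 4 of the lower ones changed at least 2-fold. The lowest difference in the list was -3.26. Bcl2l1, which encodes the survival protein BCL-XL, was among the 20 largest decreases of the comparison. It is left out of the counts of named genes given below. Of 47 lysosome and autophagy genes 7 were higher (14.9%) and 12 lower (25.5%), with a median of -0.23, and 22 were lower without tumors 1 and 2. Ctsd, a lysosomal protease, read 11.85, 11.80 and 11.81 in normal thymocytes and 9.68, 10.86, 10.41, 10.99 and 10.60 in tumors 1 to 5 (-1.31 (SE 0.245, limma adjusted p = 0.00157)), whereas Lamp2, a membrane protein of the same organelle, was higher at 7.01, 6.66 and 6.86 in normal thymocytes and 10.45, 10.30, 10.32, 10.41 and 9.62 in tumors 1 to 5 (3.38 (SE 0.294, limma adjusted p = 5.5e-06)).

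Chromatin genes split by subunit. Of 33 Polycomb genes 11 were higher (33.3%) and 6 lower (18.2%) against 13.0% and 11.3% of all genes (median -0.02). In the core of PRC2, which methylates histone H3, Suz12, Eed, Ezh2 and Rbbp7 were higher by 2.23, 0.96, 0.80 and 1.40, and Ezh1, the enzyme of resting cells, was lower, differing by -0.51 (SE 0.139, limma adjusted p = 0.0163). Rbbp4 was not called (-0.28 (SE 0.115, limma adjusted p = 0.0965)). With the mean of all its probe sets, Eed differed by 0.30 and was not called (adjusted p = 0.163). Of the chromobox subunits of PRC1, Cbx8 was lower at 8.68, 8.57 and 8.44 in normal thymocytes and 7.12, 6.81, 7.44, 7.31 and 7.91 in tumors 1 to 5 (-1.25 (SE 0.205, limma adjusted p = 6.0e-04)) and Cbx2 was lower, differing by -0.65 (SE 0.167, limma adjusted p = 0.0119). Of 60 histone-modifying enzymes 16 were higher (26.7%) and 9 lower (15%), with a median of 0.16. Hdac7, a thymocyte deacetylase, read 11.07, 10.998 and 11.004 in normal thymocytes and 10.06, 9.84, 9.16, 8.75 and 9.66 in tumors 1 to 5 (-1.53 (SE 0.239, limma adjusted p = 4.3e-04)). The call of Ezh2 ended without tumors 1 and 2 or normal array 2, in the fit of the 8 arrays alone or after cyclic loess (adjusted p 0.0535 to 0.131). The call of Ezh1 ended without normal array 2 or 3 (adjusted p 0.0502 to 0.0515). Rbbp4 was called after a repeated quantile normalization or after cyclic loess (adjusted p 0.00542 to 0.0386). The call of Cbx2 ended without normal array 2 (adjusted p = 0.0557).

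Dnmt3a was intact by label in both groups and read 9.63, 9.48 and 9.33 in normal thymocytes and 8.58, 8.52, 8.48, 8.19 and 9.57 in tumors 1 to 5. Tumor 5 overlapped the normal arrays, and the difference was -0.82 (SE 0.249, limma adjusted p = 0.0295), a call that ended without tumors 1 and 2 or normal array 1, 2 or 3 or tumor 1, 2, 3 or 4 or in the fit of the 8 arrays alone (adjusted p 0.0505 to 0.105). In the Dnmt3a-deficient tumors it read 7.33, 7.62, 7.19 and 7.53, a log2 difference of -1.25 (SE 0.229, limma adjusted p = 0.0317) from control tumors. Of 21 DNA methylation and demethylation genes 5 were higher (23.8%) and 6 lower (28.6%) against 13.0% and 11.3% of all genes (median -0.05). Without normal array 1, 2 or 3 or tumor 1 or 3, 3 were lower, so which direction was the more frequent changed. Zbtb38, which binds methylated DNA, was higher at 6.86, 7.14 and 6.86 in normal thymocytes and 8.98, 9.23, 7.92, 7.94 and 8.13 in tumors 1 to 5 (1.49 (SE 0.28, limma adjusted p = 0.0016)), and the related Zbtb4 was lower, differing by -0.80 (SE 0.165, limma adjusted p = 0.00287). Dppa3, which protects methylation in the egg, read 5.57, 5.47 and 5.90 in normal thymocytes and 4.33, 4.67, 4.65, 4.35 and 4.63 in tumors 1 to 5 (-1.12 (SE 0.14, limma adjusted p = 7.6e-05)), near the low end of the array's signal, and by the mean of its probe sets it differed by -0.69. Of 28 imprinted genes 4 were higher (14.3%) and 1 lower (3.57%) against 13.0% and 11.3% of all genes. Their share of increases was thus near that of all genes (median -0.06, and 0.03 after a repeated quantile normalization). Airn, the noncoding transcript of the Igf2r locus, read 6.83, 6.68 and 6.43 in normal thymocytes and 9.31, 9.23, 7.79, 7.85 and 7.97 in tumors 1 to 5 (1.78 (SE 0.363, limma adjusted p = 0.00277)), and Cdkn1c, a growth inhibitor, was lower, differing by -1.08 (SE 0.187, limma adjusted p = 8.8e-04).

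Of the 8 measured genes of the core and linker histone list 5 were called, all lower (median -0.64). These 5 were all linker histone (H1) genes, so the calls do not describe core histones. Without normal array 1, tumor 1, tumor 2 or both of these tumors, or after median centring, 3 were lower. H1f1, a replication-dependent linker histone, read 12.24, 12.17 and 12.03 in normal thymocytes and 10.62, 10.72, 10.80, 10.57 and 10.75 in tumors 1 to 5 (-1.46 (SE 0.143, limma adjusted p = 1.3e-05)). The array's olfactory receptors, which thymocytes are not known to use, are a measure of what the test calls at background signal: of 1012 genes 5 were higher and 16 lower (median -0.04, and 0.04 after a repeated quantile normalization). The lower ones numbered 4 without normal array 2, 10 without tumor 2 and 9 without tumor 3, and after a repeated quantile normalization 14 were higher and 8 lower. Their array means ran from 4.32 to 4.46 over the 8 arrays.

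Among the 20 largest increases several genes belonged to none of the lists. Ryk, a receptor of WNT ligands, read 5.38, 5.61 and 5.35 in normal thymocytes and 9.38, 9.42, 8.58, 8.21 and 8.50 in tumors 1 to 5 (3.37 (SE 0.282, limma adjusted p = 4.2e-06)), and Abce1, which splits ribosomes after termination, read 8.25, 6.51 and 8.61 in normal thymocytes and 11.29, 11.13, 10.96, 10.85 and 10.78 in tumors 1 to 5 (3.21 (SE 0.351, limma adjusted p = 2.9e-05)). Bcap29, an endoplasmic reticulum protein, and Emc2, a part of the membrane insertase of that organelle, differed by 3.26 (SE 0.246, limma adjusted p = 2.4e-06) and 3.46 (SE 0.374, limma adjusted p = 2.6e-05). For these 4 genes each tumor was above each normal array, which the choice of the largest increases required. Among the 20 largest decreases Dhrs3, which reduces retinaldehyde, read 10.97, 11.03 and 11.13 in normal thymocytes and 6.77, 7.93, 7.25, 7.63 and 7.67 in tumors 1 to 5 (-3.60 (SE 0.242, limma adjusted p = 1.1e-06)), and Abi3, an actin regulator, read 10.64, 10.59 and 10.49 in normal thymocytes and 6.98, 7.51, 6.51, 6.74 and 6.99 in tumors 1 to 5 (-3.63 (SE 0.267, limma adjusted p = 2.0e-06)). Slc37a2, a sugar phosphate transporter, differed by -2.94 (SE 0.172, limma adjusted p = 5.6e-07). No tumor reached a normal array in these 3 genes, which the choice of the largest decreases required.

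Control tumors differed among themselves more than normal arrays did: the median SD over genes was 0.278 for the 5 control tumors and 0.186 for the 3 normal arrays. It was also 0.186 for the 4 Dnmt3a-deficient tumors, so the wider spread was not shared by all tumors. The groups differ in number of arrays, which limits this comparison. Several genes followed the split of tumors 1 and 2 from tumors 3 to 5. Terc, the RNA of telomerase, read 7.15, 7.92 and 6.75 in normal thymocytes and 11.76, 11.54, 7.28, 7.48 and 7.38 in tumors 1 to 5, and 11.73 to 11.98 in Dnmt3a-deficient tumors. Usp17ld, a deubiquitinase, read 11.13, 11.22 and 11.93 in normal thymocytes and 5.68, 5.44, 11.47, 10.85 and 10.68 in tumors 1 to 5, and 4.88 to 5.46 in Dnmt3a-deficient tumors. Qser1, which limits DNA methylation at some promoters, read 6.35, 5.25 and 6.505 in normal thymocytes and 9.42, 9.52, 6.17, 5.02 and 5.30 in tumors 1 to 5, and 8.95 to 9.96 in Dnmt3a-deficient tumors. In all 3, tumors 1 and 2 lay near the deficient tumors and tumors 3 to 5 near the normal arrays, and none was called. Tumors 1 and 2 are also the ones with the higher 75th percentile given above.

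Tumors 3 and 4 shared another pattern. Lmo2, a T cell oncogene, read 7.36, 6.92 and 7.47 in normal thymocytes and 7.97, 8.18, 10.58, 10.61 and 9.13 in tumors 1 to 5 (2.04 (SE 0.554, limma adjusted p = 0.0158)), and Wif1, an inhibitor of WNT, read 5.77, 5.64 and 6.14 in normal thymocytes and 8.16, 7.70, 10.91, 11.18 and 8.63 in tumors 1 to 5 (3.47 (SE 0.741, limma adjusted p = 0.00384)). Tead1, a partner of the Hippo pathway's YAP, read 5.61, 5.78 and 5.70 in normal thymocytes and 8.66, 8.76, 10.70, 10.54 and 7.55 in tumors 1 to 5 (3.55 (SE 0.596, limma adjusted p = 7.1e-04)). For all 3 genes, tumors 3 and 4 were the highest of the 8 arrays, and all 5 tumors were above the normal arrays. Ssbp2, an LMO2 complex cofactor, was lowest there, at 11.37, 11.12 and 11.48 in normal thymocytes and 10.45, 9.96, 6.20, 6.46 and 9.86 in tumors 1 to 5 (-2.74 (SE 0.884, limma adjusted p = 0.038)), and its call ended without normal array 1, 2 or 3 or tumor 3 or 4 or in the fit of the 8 arrays alone (adjusted p 0.065 to 0.107). The call of Lmo2 ended without normal array 2 (adjusted p = 0.0756). Tumor 5 stood apart at Gadd45g, a stress gene, which read 6.43, 6.54 and 6.55 in normal thymocytes and 9.34, 9.66, 8.78, 9.68 and 5.65 in tumors 1 to 5 (2.12 (SE 0.763, limma adjusted p = 0.0607)), and at Efhd1, a mitochondrial calcium sensor, which read 5.41, 5.44 and 5.51 in normal thymocytes and 10.73, 10.43, 9.06, 10.13 and 6.65 in tumors 1 to 5 (3.95 (SE 0.945, limma adjusted p = 0.00776)). Tumor 5 was the lowest tumor for both. Gadd45g was called without tumor 5, without the dimmest 50% of genes or with array weights (adjusted p 2.4e-04 to 0.0425).

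**Figure D5:**
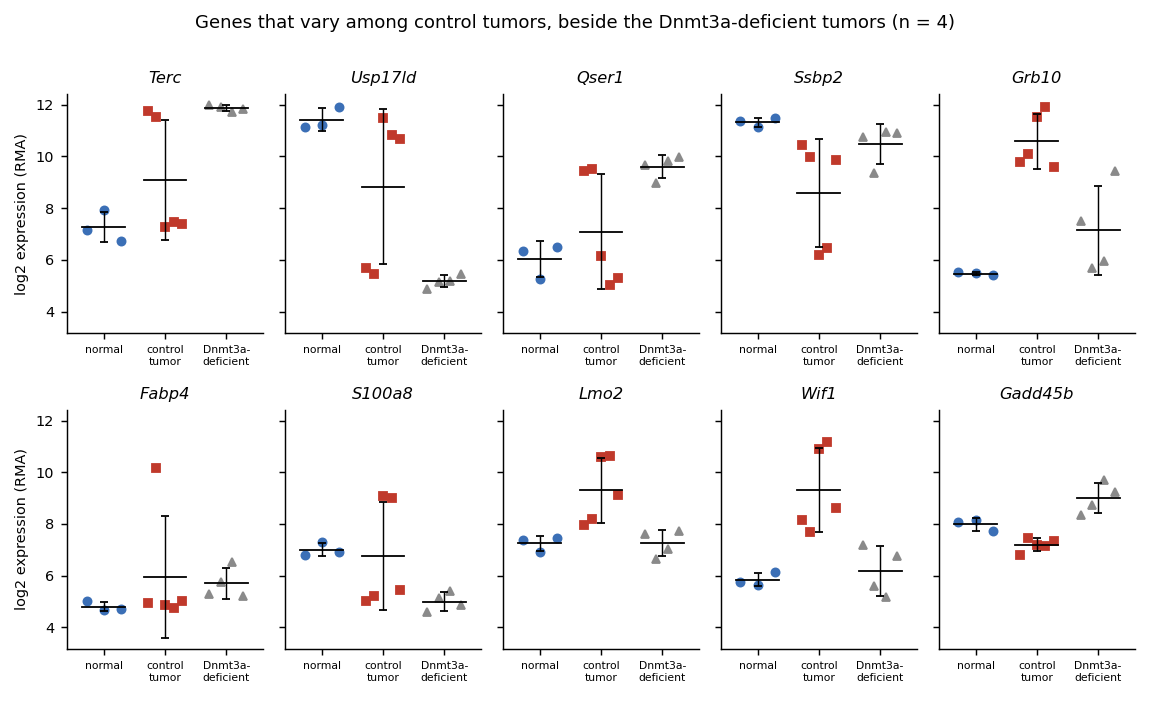
Log2 value of 10 genes with wide spread between tumors, per array, in normal thymocytes, control tumors and Dnmt3a-deficient tumors. Terc, Usp17ld and Qser1 separate tumors 1 and 2 from tumors 3 to 5, Fabp4 is high in tumor 2 (10.16), and S100a8 is high in tumors 3 and 4 (9.09 and 8.99).

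Marker means of other cell types differed between tumors, and some also between the groups. Neutrophil markers had an array mean of 7.44 to 7.54 in tumors 3 and 4, 5.69 to 5.94 in tumors 1, 2 and 5 and 6.17 to 6.64 in normal arrays. Adipocyte markers had a mean of 8.26 in tumor 2, where Scd1 read 11.51, Car3 10.87, Fabp4 10.16 and Adipoq 8.20, against 5.35 to 5.57 on the other 7 arrays. B cell means were 6.04 to 6.11 in normal arrays and 5.66 to 6.26 in tumors, NK cell means 5.94 to 6.10 and 5.46 to 5.89, erythroid means 6.03 to 6.31 and 5.58 to 5.92, and fibroblast and endothelial means 6.20 to 6.25 and 6.03 to 6.71. Every tumor was below every normal array for the NK cell and erythroid means, as for the dendritic cell and thymic epithelium means given above. B cell, macrophage and fibroblast and endothelial means overlapped. No array value reaches 0, so a marker near the low end of the signal cannot be read as absent. The part of these cells in the differences above was not tested.

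The control tumors and the Dnmt3a-deficient tumors differed in 158 genes (0.818%). Among the 215 genes named here, 6 differed. Grb10, an imprinted adaptor, was lower in deficient tumors, differing by -3.44 (SE 0.684, limma adjusted p = 0.0441), reading 9.80, 10.09, 11.51, 11.91 and 9.59 in control and 7.51, 5.67, 5.96 and 9.44 in deficient tumors against 5.40 to 5.52 in normal thymocytes. Gadd45b, a stress gene tied to demethylation, read 6.79, 7.47, 7.19, 7.16 and 7.36 in control and 8.34, 8.73, 9.69 and 9.23 in deficient tumors and was higher in the latter by 1.80 (SE 0.24, limma adjusted p = 0.0144). Cd27, a costimulatory receptor, was lower in deficient tumors, differing by -1.30 (SE 0.272, limma adjusted p = 0.0477). For the nucleolar genes Ncl and Dkc1 the groups did not pass the test (differences of 0.25 (SE 0.269, limma adjusted p = 0.626) and -0.10 (SE 0.245, limma adjusted p = 0.851)).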

How the data were processed

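Total RNA was extracted with Trizol, purified on RNeasy columns, amplified and labelled with biotin, per the labels' protocols. The authors deposited a log2 value per probe set, and the submitters' processing notes name Affymetrix Expression Console and RMA. Their versions, and how arrays were grouped in normalization, were not stated. Of 23858 probe sets, 20870 had 1 gene symbol. For each gene the probe set with the highest mean over the 12 arrays was kept, giving 19309 genes, with no filter on dim genes. A model with 3 group means on all 12 arrays was fitted with limma 3.58.1 in R 4.3.3 (lmFit, eBayes; 9 residual degrees of freedom), two-sided, with Benjamini-Hochberg adjustment over all genes and calls at an adjusted p under 0.05. Groups came from the sample titles. Members, gene lists and markers were chosen with earlier results of these data known, and complexes shown subunit by subunit and some genes beyond the naming rule were picked from the lists after their values were seen. By that rule the text drew on the 20 largest increases and decreases, up to 6 called members per list and direction, all members of the MYC, CD3, Gimap, DNA methylation and T cell lists and the 10 genes with the largest SD over tumors. The 20 largest increases and decreases were taken only from called genes whose tumor and normal values did not overlap. Their separation is therefore not a separate result. Lists hold genes in common and were not tested as sets. Of 3112 list entries 2950 matched a tested gene. On simulated data for the control tumor against normal comparison (19309 genes), limma called 4.41% of genes changed by 0.5, 72.7% by 1 and 95.5% by 2 on the log2 scale. The simulation changed 68, 66 and 66 genes by these amounts and gave 6 false calls. It changed far fewer genes than the 4706 called in the data. The adjusted p depends on that number, so these shares are not the recovery rates of the real comparison. 18 alternatives were run: 8 that leave out an array and 10 other settings. Promoter and microRNA sequences are RefSeq's (GRCm38.p6).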

Additional observations from a re-analysis of the deposited data

Results flagged for a closer look

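Of 272 values tested (genes named above and list means), 15 had 1 control tumor far from the other 4 by Dixon's test. Chance gives such a tumor in about 1 of 20 values that were not chosen by their spread. Some genes, among them Scd1, Car3 and Fabp4, were named for their large SD over these same tumors. The adipocyte list mean includes these 3, so the count cannot be set against that rate. Tumor 2 was far above the others at 4 adipocyte markers, with 11.5 for Scd1 (others 4.47 to 6.13), 10.9 for Car3 (5.01 to 5.47), 10.2 for Fabp4 (4.75 to 5.01) and 8.20 for Adipoq (4.59 to 5.27), and the adipocyte list mean was 8.26 there against 5.35 to 5.46. Tumor 5 was far below the others for Gadd45g (5.65 against 8.78 to 9.68), Lamp2 (9.62 against 10.30 to 10.45) and Trim30a (5.34 against 6.43 to 6.86), and far above them for Dnmt3a (9.57 against 8.19 to 8.58). Tumor 3 was apart for Adam10 (9.40 against 9.17 to 9.21), Orc2 (9.65 against 9.06 to 9.21) and Zbtb4 (6.39 against 6.89 to 7.03). Tumor 4 was low for Nbn (7.51 against 7.93 to 8.10) and Slc39a10 (8.30 against 8.73 to 8.91), and tumor 2 for Mre11a (8.97 against 9.37 to 9.52).

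The response against normal thymocytes differed between the tumor groups for 6 of the 215 genes named, by limma's contrast of Dnmt3a-deficient minus control tumors. The log2 difference was 1.21 for Ccne2 (adjusted p = 0.0453), -1.30 for Cd27 (0.0477), -1.25 for Dnmt3a (0.0317), 1.80 for Gadd45b (0.0144), -3.44 for Grb10 (0.0441) and 1.59 for Irgm1 (0.0221), and Dnmt3a is the gene deleted by design.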

How the results depend on the processing

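No named gene called in the comparison was called in the opposite direction under any of the 18 alternatives, and of 188 named genes that were called 159 kept the call in every alternative run for them. Mir181b-2, not called, turned from a positive difference to -0.90 without tumors 1 and 2. The replicate numbers gave no pairing, with correlations of same-numbered deviations of 0.0861, -0.00555 and 0.0844, and the replicate block gave 2629 genes higher and 1997 lower and 6 olfactory receptors lower. With that block 7 named genes lost the call (Atic, Gadd45b, Gar1, Nhp2, Samd9l, Ssbp2 and Zbtb17) and 4 gained one (Gadd45g, Igf2r, Terc and Usp17ld). Without tumors 1 and 2 the members called lower were 13 for the BCL2 list, 19 for T lineage factors, 22 for lysosome, 1 for Gimap and 3 for histones. Repeated quantile normalization gave 3 cholesterol and 9 glycolysis genes higher and 8 olfactory receptors lower. Cyclic loess gave 9 glycolysis, 11 proteasome, 6 respiratory chain and 17 spliceosome genes higher and 7 olfactory receptors lower. Histones lower were 3 after median centring, olfactory receptors lower were 5 in the fit of the 8 arrays, and without the dimmest 50% of genes 0 olfactory receptors and 2 microRNAs were lower, with fewer genes tested. Leaving out each array in turn gave 1302 to 2351 genes lower. The same gave 3 to 6 lower for CD3, 3 to 6 for DNA methylation, 0 to 2 for Gimap, 3 to 5 for histones, 7 to 12 for mature T cell, 4 to 18 for olfactory receptors, 7 to 11 for receptor signaling and 7 to 13 for early genes. It gave 3 to 6 higher for cholesterol, 11 to 20 for mitochondrial ribosomal proteins, 5 to 13 for the respiratory chain, 6 to 13 for small nucleolar RNAs and 16 to 25 for the spliceosome. Apart from the settings themselves, the cause of these moves was not tested. Precision is limited by 3 normal arrays, and signals near the floor of the array compress differences of dim genes.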
